A study of Mus musculus with 6 samples.

Results

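The 40 genes described here act at the end of the cell cycle, from the G2 phase through mitosis to the cut between daughter cells. They were taken by symbol from a table of 55487 genes, in 6 libraries of RNA from megakaryocyte-erythroid progenitors, the marrow precursors of red blood cells and platelets. All came from C57BL/6 mice of wild type genotype, 8 weeks old. The 3 control libraries came from mice labelled control, and the 3 fasted libraries from mice fasted for 6 h. The labels do not say whether a library is 1 mouse or a pool, so the spread between libraries may be partly technical. The study concerned the influence of fasting on red blood cell formation, and the comparison here asks whether RNA of the mitotic machinery differed between the 2 groups.

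Mitosis starts when CDK1, bound to cyclin B, is freed of its inhibitory phosphates by CDC25 phosphatases. Kinetochores then tie the condensed chromosomes to spindle microtubules, and the spindle checkpoint holds the anaphase-promoting complex (APC/C) until every chromosome is attached. Erythroid and megakaryocytic progenitors divide often, and RNAs of this machinery accumulate in G2 and M and are scarce in resting cells. In bulk RNA, fewer cells in these phases and less RNA per such cell cannot be told apart.

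Genes of this kind share a promoter arrangement, a cell cycle homology region (CHR) bound by the DREAM and B-MYB complexes and CCAAT boxes bound by NF-Y. The RefSeq promoter table (GRCm38.p6, 250 bases before to 50 after each start) held 36 windows for 34 of the 40 genes. The CHR letters TTTGAA or TTCGAA, on either strand, stood in 30 of the 36 windows (83.3%), against 19.2% of all 32851 windows of that length. CCAAT, on either strand, stood in 30 of the 36 (83.3%), against 37.4% of all windows, and both motifs stood together in 27 (75.0%), against 7.52%. A pair or more of CCAAT matches was found in 20 of the 36 windows (55.6%), against 11.7% of all. The bases before the start are shown for the 6 members with the smallest p in the comparison of fasted with control among those that hold both motifs there. Each run is written 5′ to 3′ on the gene's strand, with CHR and CCAAT letters of either strand in capitals. The 6 windows are chr11:99024190-99024439 (minus strand), chr10:69352913-69353162 (minus strand), chr19:37376132-37376381 (plus strand), chr4:118437344-118437593 (minus strand), chr7:80294226-80294475 (plus strand) and chr3:27153855-27154104 (minus strand).
Top2a: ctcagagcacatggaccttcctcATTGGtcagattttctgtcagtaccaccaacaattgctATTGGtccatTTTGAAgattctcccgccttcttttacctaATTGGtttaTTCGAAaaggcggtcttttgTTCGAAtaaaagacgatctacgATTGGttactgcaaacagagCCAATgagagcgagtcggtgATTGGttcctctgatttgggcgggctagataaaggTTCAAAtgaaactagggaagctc
Cdk1: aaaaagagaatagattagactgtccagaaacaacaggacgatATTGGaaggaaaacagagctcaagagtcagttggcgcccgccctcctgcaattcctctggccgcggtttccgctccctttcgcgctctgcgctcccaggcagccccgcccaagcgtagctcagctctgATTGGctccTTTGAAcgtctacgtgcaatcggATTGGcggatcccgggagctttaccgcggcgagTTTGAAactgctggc
Kif11: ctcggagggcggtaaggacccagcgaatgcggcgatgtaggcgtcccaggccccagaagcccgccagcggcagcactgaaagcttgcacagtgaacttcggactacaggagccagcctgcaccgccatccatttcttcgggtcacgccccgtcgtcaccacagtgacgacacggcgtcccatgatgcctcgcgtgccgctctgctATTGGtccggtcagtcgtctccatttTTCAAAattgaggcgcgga
Cdc20: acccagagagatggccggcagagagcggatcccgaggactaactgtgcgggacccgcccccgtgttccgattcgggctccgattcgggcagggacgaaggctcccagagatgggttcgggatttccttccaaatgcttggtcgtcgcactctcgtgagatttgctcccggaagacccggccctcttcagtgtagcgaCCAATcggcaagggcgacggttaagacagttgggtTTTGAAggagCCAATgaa
Prc1: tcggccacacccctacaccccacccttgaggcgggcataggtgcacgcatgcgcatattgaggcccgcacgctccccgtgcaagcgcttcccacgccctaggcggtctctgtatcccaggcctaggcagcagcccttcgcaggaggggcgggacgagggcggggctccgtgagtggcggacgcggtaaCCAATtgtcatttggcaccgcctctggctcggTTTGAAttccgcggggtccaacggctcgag
Ect2: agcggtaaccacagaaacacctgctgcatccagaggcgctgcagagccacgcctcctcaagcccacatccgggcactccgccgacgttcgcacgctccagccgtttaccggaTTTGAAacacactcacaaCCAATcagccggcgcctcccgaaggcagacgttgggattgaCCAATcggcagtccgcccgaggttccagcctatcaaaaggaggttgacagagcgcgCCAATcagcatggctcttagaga
Of these 6, Top2a had the most matches, with 4 of CHR and 6 of CCAAT in 250 bases. Its CHR letters nearest the start begin 23 bases before it. Those of Cdk1, Kif11, Cdc20 and Prc1 begin 15, 19, 18 and 30 bases before the start. The Ect2 window has 1 that begins 138 bases before the start and 1 just after it, outside the bases shown. Prc1 and Ect2 each have another annotated start, from which the same letters begin 5 and 114 bases before. Cdc25c and Aurkb had no window and so could not be among the 6. A match is a run of letters, not a bound site. The 27 tested members with a CHR match had a median log2 fold change (fasted minus control, as defined below) of -0.21, 22 of them below 0. The 6 tested members whose window held no CHR match, with or without CCAAT, had a median of -0.12, with all 6 below 0.

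Gene counts totalled 22445970 to 30246110 per control library and 12797144 to 18225191 per fasted library. Genes silent in blood also drew counts. The 1468 odorant and vomeronasal receptor genes received 8.98 to 14.7 counts per kilobase in control and 14.2 to 16.0 in fasted libraries. At that rate over all exons, background was 3.90% to 8.58% of the counts in control and 11.5% to 14.6% in fasted libraries, which do not overlap. The main test therefore took the 10648 genes with at least 5 times this background on average, and CPM below means counts per 1000000 scaled by TMM factors of those genes. Markers of other cells moved between libraries too. The summed level of 16 granulocyte and monocyte markers was 4065, 13005 and 19855 CPM in control libraries 1, 2 and 3 and 4933, 3383 and 2046 CPM in fasted libraries 1, 2 and 3. For 16 erythroid markers it was 8457, 8746 and 5175 CPM in control and 7120, 8540 and 10783 CPM in fasted libraries. The granulocyte and monocyte sum was the larger in control libraries 2 and 3, where Mpo alone had 7014 and 10883 CPM. Such sums rest on few genes and do not rank cell types. By log2 fold change, 16 of 16 tested granulocyte and monocyte markers were below 0 (median -1.84). Of 15 tested erythroid markers 13 were above 0 (median 0.30). None of either list passed the main test. The ranges for 10 megakaryocyte markers were 560.4 to 760.0 CPM in control and 344 to 532 CPM in fasted libraries. For 10 B and T lymphocyte markers they were 75.3 to 138 CPM and 119.6 to 259 CPM, for 8 stem and multipotent markers 795 to 1011 CPM and 576 to 977 CPM, and for 6 mast cell and basophil markers 118 to 222 CPM and 61.1 to 123 CPM. No gene of the 6 marker lists was at 0 in any library, but genes silent in blood drew counts too. At least 5 times the background was reached by 16 of 16 granulocyte and monocyte, 15 of 16 erythroid and 7 of 10 megakaryocyte markers. It was reached by 5 of 10 lymphocyte, 5 of 8 stem and multipotent and 4 of 6 mast cell and basophil markers. The sums include background. The part these markers play in the mitotic genes was not tested.

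Of the 40 members, 39 were tested, and they were well above background, from 9.55 times for Anln to 186 times for Cdc20. Per kilobase of exon, members differed by more than an order of magnitude in level. Cdc20, which activates the APC/C, and Ccnb2, which encodes cyclin B2, were highest at 131 and 129 CPM per kilobase. Birc5 (survivin) and Aurkb (the Aurora B kinase), partners in the chromosomal passenger complex, followed at 57.1 and 54.0. Anln (anillin, a scaffold of the cleavage furrow), Kif23, Ndc80 and Cdc25c were lowest, at 6.65, 7.32, 7.76 and 7.99 CPM per kilobase. The median member stood at 22.1 CPM per kilobase against 10.9 for all tested genes, and 29 of the 39 lay above that value. Lengths are those of all annotated exons together, so a gene with long rarely used exons looks lower.

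Fasted libraries held somewhat less RNA of most of these genes, and no member passed the test. In edgeR's quasi-likelihood fit 0 of 39 members had an adjusted p under 0.05, where 0 of all 10648 tested genes (0%) did. The smallest edgeR adjusted p was 0.131 among members, for Top2a, and 0.0900 among all genes. Signs leaned to the lower side. The log2 fold change was below 0 for 32 of the 39 (82.1%), against 47.7% of all tested genes, and its median was -0.19 (quartiles -0.32 and -0.06) against 0.02. At an unadjusted p under 0.05 there were 8 members (20.5%, against 19.9% of all tested genes), of which 7 were lower (17.9%, against 8.3%) and 1 was higher (2.56%, against 11.6%). The control and fasted libraries did not overlap for 10 members (25.6%), against 27.4% of all tested genes. Of these, 9 were lower in fasted libraries, where the share of all tested genes was 13%, and 1 was higher, where it was 14.4%. The members vary together and are not 39 independent observations. DESeq2 on the same genes passed Top2a alone (DESeq2 adjusted p 0.00905), with 1.65% of tested genes lower and 3.05% higher. With limma-voom 0 members passed. At an unadjusted limma-voom p under 0.05, 7 members were lower and 1 higher. These were 20.5% of the 39, where 2092 of the 10648 tested genes were under it in either direction.

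The scaling between libraries sets how large the difference looks. When all 36508 genes passing filterByExpr were scaled and tested together, 1813 (4.97%) passed, 1393 (3.82%) of them lower. In that fit the median of the 10648 genes used above was itself -0.50, so their values lie about that much lower. All 40 members then had a log2 fold change below 0, including the 7 above it in the main test (Ccna2, Cdc25c, Cenpa, Ndc80, Hmmr, Kif23 and Mki67), with a median of -0.72 over the 39, and 13 passed as lower. These 13 are 33.3% of the 39, where 12.8% of the 10648 genes passed as lower. They were Ccnb1, Cdk1, Aurka, Aurkb, Cdc20, Nuf2, Spc25, Kif11, Tpx2, Kif20a, Prc1, Ect2 and Top2a, with edgeR adjusted p between 0.0277 (Top2a) and 0.04995 (Tpx2). With the limit set at 2 times the background, 20634 genes were tested and 9 of the 39 members (23.1%) passed as lower, where 1631 of all genes (7.9%) passed and 5.42% passed as lower. Without fasted library 1 the main test left 1 member lower and 1 higher at an unadjusted p under 0.05, where 6.25% of all tested genes were lower and 8.07% higher. Without fasted library 3 it left 14 lower and 0 higher, where 5.37% of all tested genes were lower and 7.81% higher. Without control library 3 there were 12 lower and 1 higher, where 8.82% of all tested genes were lower and 12.1% higher, and the members' median was -0.30.

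**Figure D1:**
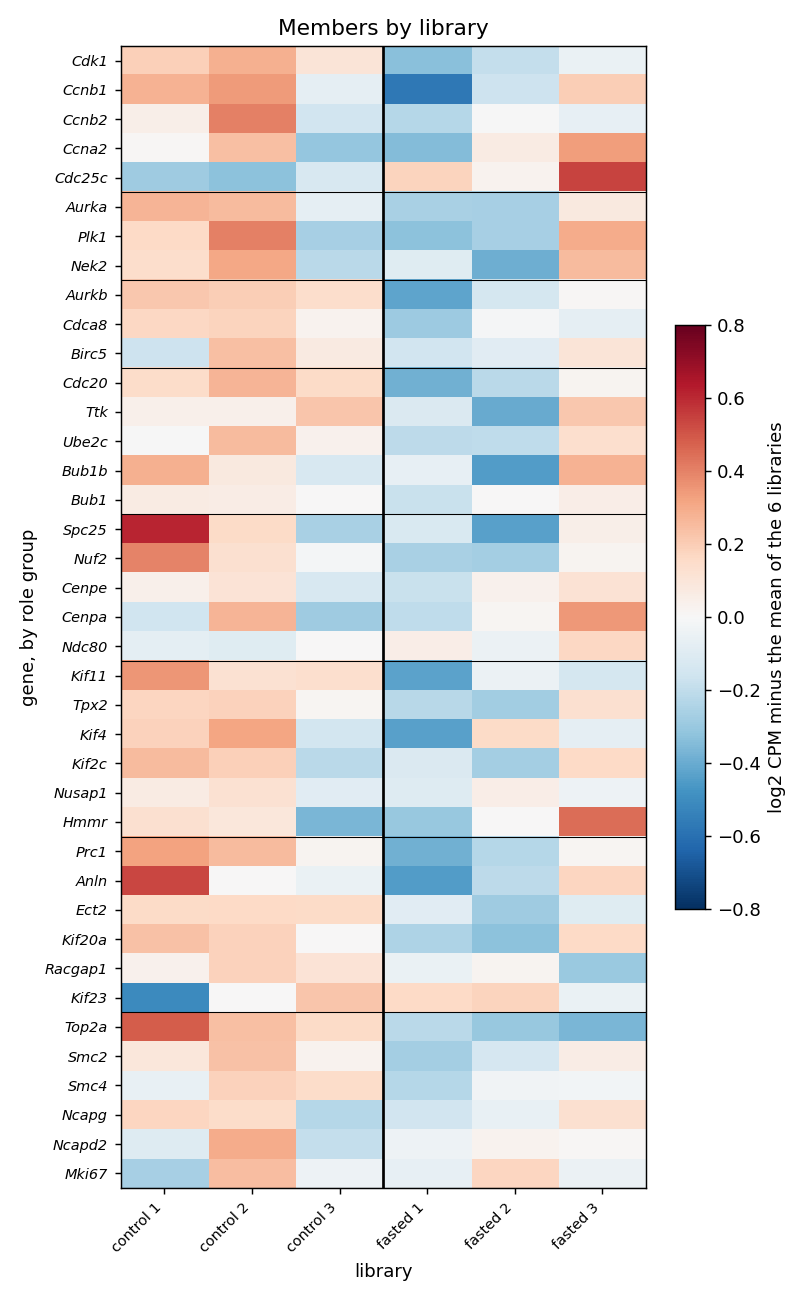
Level of each of the 39 tested members (rows, by role group) in the 6 libraries (columns), as log2 CPM minus the mean of the 6 libraries. The columns of control libraries 1 and 2 are mostly red (above the mean) and those of fasted libraries 1 and 2 mostly blue, while control library 3 and fasted library 3 are mixed, with mean values of -0.04 and 0.08.

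Single libraries differed within each group. Averaged over the 39 members, log2 CPM relative to the mean of the 6 libraries was 0.12, 0.18 and -0.04 for control libraries 1 to 3. For fasted libraries 1 to 3 it was -0.21, -0.13 and 0.08, so fasted library 3 lay above control library 3 and the groups overlapped. Control library 2 held the highest value of 18 members and control library 1 that of 13, while fasted library 1 held the lowest value of 18 and fasted library 2 that of 10. Fasted library 3 was highest for 6 members, and control library 3 for 2. Summed over all 40 genes, the level was 5350, 5701 and 4834 CPM in control and 4219, 4551 and 5122 CPM in fasted libraries. Fasted library 3 also had the highest summed level of the erythroid markers (10783 CPM). It had the lowest of the granulocyte and monocyte, megakaryocyte, stem and multipotent, and mast cell and basophil markers (2046, 344, 576 and 61.1 CPM). Control library 3 had the lowest erythroid sum (5175 CPM). Its granulocyte and monocyte sum and its stem and multipotent sum were the highest (19855 and 1011 CPM). Whether these marker levels bear on the members was not tested.

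Of the cyclins and the genes of CDK1 control, 3 had a log2 fold change below 0 and 2 above it, and none passed the test. Cdk1 (ENSMUSG00000019942.13, chromosome 10, 69335146 to 69352938, minus strand), the kinase that drives entry into mitosis, had 121, 129 and 114 CPM in control libraries 1, 2 and 3 and 84.4, 93.1 and 102 CPM in fasted libraries 1, 2 and 3. Every fasted library lay below every control library. The mean was 23.3% lower, and the log2 fold change was -0.38 (edgeR adjusted p 0.173, SE 0.13). Ccnb2 (ENSMUSG00000032218.7, chromosome 9, 70407692 to 70421547, minus strand) had 203, 259 and 176 CPM in control and 167, 195 and 188 CPM in fasted libraries. These groups overlapped, and the log2 fold change was -0.21 (SE 0.16). Ccnb1, which encodes cyclin B1, the main partner of CDK1 at mitotic entry, had -0.34 (SE 0.20), also with overlap. Ccna2, which encodes cyclin A2 and is used already in S phase, had 0.05 (SE 0.20). Its fasted values spanned 119 to 190.3 CPM around control values of 122 to 178 CPM.

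Cdc25c had the highest log2 fold change of the 39. This phosphatase gene (ENSMUSG00000044201.10, chromosome 18, 34732993 to 34751533, minus strand) had 31.5, 30.6 and 35.1 CPM in control libraries 1, 2 and 3 and 43.4, 39.3 and 55.8 CPM in fasted libraries 1, 2 and 3. All 3 fasted values were above all 3 control values, at a log2 fold change of 0.51 (edgeR adjusted p 0.185, SE 0.18). Its level was 10.3 times the background. After the background of each library was subtracted it was 0.53 (edgeR adjusted p 0.251), and in the fit of all genes -0.01 (edgeR adjusted p 0.972). A gene model on the other strand, Gm3550, overlaps it, and whether counting used strand is not given in the sources used here. This limit is not particular to Cdc25c. Of the 39 tested members, 22 overlap another gene model on either strand, among them Ccna2 (Exosc9) and Prc1 (Rccd1).

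The other mitotic kinases were below 0 without passing. Aurka (ENSMUSG00000027496.15, chromosome 2, 172356190 to 172370535, minus strand), the Aurora A kinase of spindle poles, had 113, 112 and 88.9 CPM in control and 78.2, 77.8 and 98.9 CPM in fasted libraries. Fasted libraries 1 and 2 were below all controls and fasted library 3 was not, and the log2 fold change was -0.30 (edgeR adjusted p 0.315, SE 0.16). Plk1 (ENSMUSG00000030867.7, chromosome 7, 122159439 to 122169873, plus strand), the polo-like kinase that acts from mitotic entry to cytokinesis, had 111, 131 and 82.5 CPM in control and 79.2, 82.8 and 122 CPM in fasted libraries. In both groups 1 library stood apart, control library 3 on the low side and fasted library 3 on the high side, and the log2 fold change was -0.19 (SE 0.22). Nek2, a kinase of centrosome separation, had -0.15 (SE 0.20).

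In the chromosomal passenger complex, which corrects wrong attachments and later marks the midzone, all 3 members were below 0. Aurkb (ENSMUSG00000020897.12, chromosome 11, 69045647 to 69051664, plus strand), its catalytic subunit, had 183, 180.0 and 173 CPM in control and 118, 143 and 159 CPM in fasted libraries. The 3 controls lay close together and above every fasted library, at a log2 fold change of -0.36 (edgeR adjusted p 0.208, SE 0.14). Cdca8 (borealin) also had groups that did not overlap, with -0.25 (edgeR adjusted p 0.295, SE 0.12). Birc5 (ENSMUSG00000017716.15, chromosome 11, 117849251 to 117855743, plus strand) had 172, 228 and 203 CPM in control and 174, 181 and 207 CPM in fasted libraries. These overlapped through most of their range, at -0.10 (SE 0.14).

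The checkpoint and its target gave 5 values below 0. Cdc20 (ENSMUSG00000006398.15, chromosome 4, 118432901 to 118437352, minus strand), the member with the highest level per kilobase, had 267, 292 and 268 CPM in control libraries 1, 2 and 3 and 185, 208 and 245 CPM in fasted libraries 1, 2 and 3. No fasted library reached the lowest control, and the mean was 22.8% lower. For Cdc20 the log2 fold change was -0.37 (edgeR adjusted p 0.188, SE 0.13). Elovl1 overlaps Cdc20 on the other strand. Ube2c, the ubiquitin-conjugating enzyme of the APC/C, had -0.18 (SE 0.15). The checkpoint kinases Bub1 and Ttk and the checkpoint protein gene Bub1b (BUBR1) had -0.08 (SE 0.13), -0.18 (SE 0.19) and -0.13 (SE 0.19), each smaller than its SE.

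Of the 5 tested centromere and kinetochore genes, 3 had a log2 fold change below 0 and 2 above it, and the groups overlapped for all 5. Nuf2 (ENSMUSG00000026683.14, chromosome 1, 169497934 to 169531464, minus strand) and Spc25, which encode subunits of the NDC80 complex that grips microtubules, had log2 fold changes of -0.35 (SE 0.16) and -0.37 (SE 0.22). Nuf2 had 79.96, 66.2 and 59.9 CPM in control and 50.6, 50.1 and 61.6 CPM in fasted libraries, with fasted library 3 above control library 3. Ndc80 (ENSMUSG00000024056.10, chromosome 17, 71496100 to 71526857, minus strand), which encodes another subunit of the same complex, had 47.7, 47.1 and 50.4 CPM in control and 52.1, 48.7 and 56.4 CPM in fasted libraries. Ndc80 thus stood at 0.12 (SE 0.14), and the 3 subunits of this complex did not share a sign. Cenpa (ENSMUSG00000029177.9, chromosome 5, 30666777 to 30674830, plus strand), which encodes the histone H3 variant of centromeres, had 204, 274 and 187 CPM in control and 197, 230.0 and 289 CPM in fasted libraries. The groups overlapped, at 0.11 (SE 0.19). Cenpe, a kinetochore motor, had -0.02 (SE 0.14).

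Cenpf, a large kinetochore protein gene, was the 1 member left out of the main test, at 4.91 times the background. Its raw counts were 1526, 1414 and 935 in the 3 control libraries, in order, against 730, 746 and 847 in the 3 fasted ones. On the CPM scale used here these were 54.4, 59.9 and 47.3 CPM in control and 63.4, 47.6 and 63.8 CPM in fasted libraries. With the background of each library taken off they were 49.5, 51.3 and 35.8 CPM in control and 44.4, 31.8 and 46.6 CPM in fasted libraries. The groups overlapped on both scales. The fit of all genes gave -0.42 (edgeR adjusted p 0.228, SE 0.23).

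Of the 6 spindle motors and assembly factors, Kif11 had the smallest p. Kif11 (ENSMUSG00000012443.4, chromosome 19, 37376403 to 37421859, plus strand), the kinesin that pushes spindle poles apart, had 208, 177 and 178 CPM in control and 121, 158 and 148 CPM in fasted libraries. All fasted libraries were lower than all controls, with fasted library 1 lowest, and the log2 fold change was -0.40 (edgeR adjusted p 0.180, SE 0.14). Tpx2, which activates Aurora A on the spindle, had -0.24 (SE 0.14). The kinesins Kif4 and Kif2c had -0.23 (SE 0.19) and -0.15 (SE 0.18). Nusap1, a microtubule-bundling protein gene, had -0.06 (SE 0.13). Hmmr, a spindle-associated hyaluronan receptor gene, was the only member of the group above 0, at 0.11 (SE 0.21).

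Central spindle and cytokinesis genes had the lowest median of the 8 role groups, -0.29 over 6 genes, of which 5 were below 0. Prc1 (ENSMUSG00000038943.16, chromosome 7, 80294450 to 80316259, plus strand), which crosslinks the antiparallel microtubules of the midzone, had 106, 101 and 86.1 CPM in control and 64.9, 72.3 and 85.7 CPM in fasted libraries. The groups were apart only by the gap between control library 3 and fasted library 3. Prc1 had a log2 fold change of -0.40 (edgeR adjusted p 0.209, SE 0.15). Ect2, the exchange factor that activates RhoA at the furrow, had control values of 86.1 to 86.6 CPM and fasted values of 63.4 to 72.8 CPM, a log2 fold change of -0.31 (edgeR adjusted p 0.222, SE 0.12). Racgap1 (ENSMUSG00000023015.14, chromosome 15, 99620496 to 99651656, minus strand), which encodes the GTPase-activating subunit of centralspindlin, had 127, 141 and 134 CPM in control and 119.6, 126 and 101 CPM in fasted libraries. The groups were apart by a narrow margin, at -0.21 (SE 0.13). Its partner Kif23 (ENSMUSG00000032254.10, chromosome 9, 61915905 to 61946774, minus strand), the centralspindlin kinesin, had 40.03, 57.1 and 66.6 CPM in control and 63.6, 64.5 and 54.9 CPM in fasted libraries. Control library 1 was far below the rest, and the log2 fold change was 0.16 (SE 0.20). Anln and Kif20a had -0.33 (SE 0.21) and -0.26 (SE 0.16).

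Top2a (ENSMUSG00000020914.17, chromosome 11, 98992943 to 99024189, minus strand) had the lowest log2 fold change of the 39. It encodes topoisomerase II alpha, which untangles and compacts chromosomes, and had 428, 362 and 341 CPM in control libraries 1, 2 and 3 and 263, 248 and 238 CPM in fasted libraries 1, 2 and 3. The groups were well apart, and the mean went from 377 CPM ± 45.7 (SD, n = 3) to 249.6 CPM ± 12.7 (SD, n = 3), which is 33.8% lower. The log2 fold change was -0.60 (edgeR adjusted p 0.131, SE 0.13), and it lay between -0.69 and -0.49 when any 1 library was left out. With the background subtracted it was -0.55 (edgeR adjusted p 0.195). Mki67, which encodes the Ki-67 protein that coats mitotic chromosomes and serves as the common marker of dividing cells, had 192, 274 and 224 CPM in control and 220.3, 259 and 223 CPM in fasted libraries. All fasted values lay inside the control range, at 0.03 (SE 0.15). The condensin genes Smc2, Smc4, Ncapd2 and Ncapg had -0.23, -0.18, -0.02 and -0.06, with SE between 0.12 and 0.16, and overlapping groups.

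**Figure D2:**
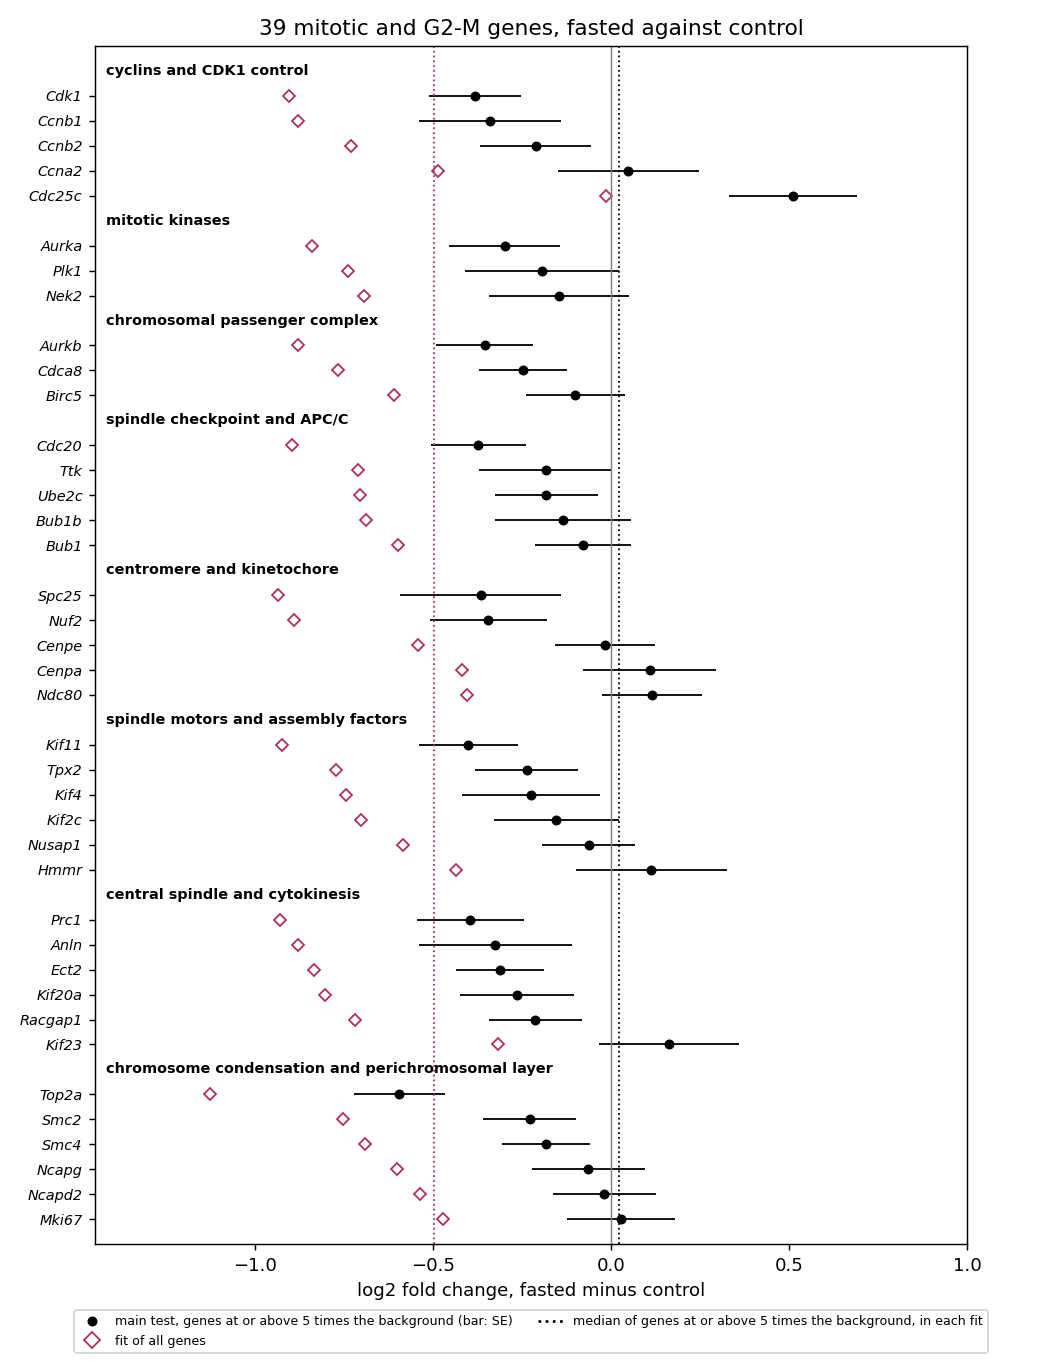
Log2 fold change of fasted minus control libraries (x axis) for the 39 tested members by role group (y axis). Black points with SE bars are the main test and open diamonds the fit of all genes, with dotted lines at the median of the 10648 genes in each, 0.02 and -0.50. In the main test 32 points lie left of 0, Top2a farthest at -0.60, and Cdc25c is farthest right at 0.51.

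**Figure D3:**
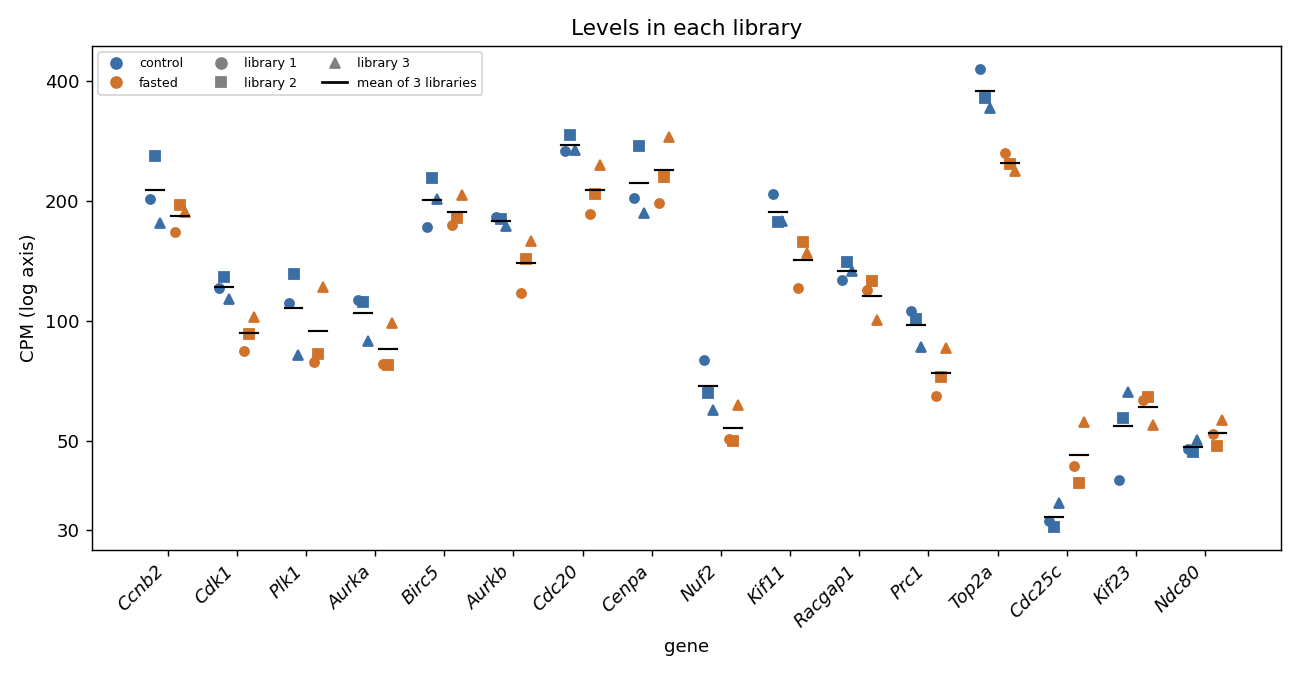
CPM on a log axis in each of the 6 libraries for the 16 members picked by level, p or positive change. Control is in blue, fasted in orange, with a line at each group's mean of 3 libraries. Top2a, Cdk1, Cdc20, Kif11, Aurkb, Prc1 and Racgap1 have every fasted library below every control library, Cdc25c has every one above, and the groups of the other 8 genes overlap. Genes picked by small p are more often without overlap. Over all 39 tested members the groups did not overlap for 10 (25.6%), against 27.4% of all tested genes. Of these 10, 9 were lower and 1 higher, against 13% and 14.4% of all tested genes.

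Ratios of 2 members within a library need no scaling between libraries. The counts in them still include background, which was a larger share of the fasted libraries and weighs more on low members. Among the 741 pairs of tested members, the ratio of counts did not overlap between the groups for 142 (19.2%). Among pairs of all tested genes with counts in every library it did not overlap for 26.7%. The ratio of Cdc25c was higher in every fasted than in every control library against 30 of the 38 other members, and against 43.2% of the other tested genes. For Ndc80 this held against 16 members and 17.5% of the other genes, and for Cenpe against 13 members and 6.8%. With the background subtracted, the log2 fold changes of Cdc25c, Ndc80 and Cenpe were 0.53, 0.09 and -0.05. In the main test they were 0.51, 0.12 and -0.02. The ratios were not computed after subtraction. The ratio of Top2a was lower in every fasted library against 19 of the 38, and against 68.7% of the other tested genes. For Cdk1 the counts were 15 members and 44.5% of genes, for Prc1 13 members and 41% and for Cdc20 12 members and 40.3%. The 4 pairs that follow were chosen after their values were seen and carry no test.

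For cyclin B1 over cyclin A2, 2 cyclins that follow each other in the cycle, the ratio of counts ran 1.53, 1.36 and 1.49 over control libraries 1 to 3 against 1.08, 1.08 and 1.15 over fasted libraries 1 to 3. The means were 1.46 ± 0.0921 and 1.104 ± 0.0411 (SD, n = 3 each), with a narrow spread in both groups. For Cdk1 over Ccna2 the ratio was 0.801, 0.724 and 0.934 for the controls against 0.7103, 0.589 and 0.537 for the fasted ones. For Top2a over Mki67 it was 2.23, 1.32 and 1.52 for the controls against 1.19, 0.955 and 1.07 for the fasted ones. Control library 1 stood far above the other libraries here, with the lowest Mki67 and the highest Top2a of the 6. For Cdc25c over Cdk1 it was 0.2595, 0.237 and 0.308 for the controls against 0.515, 0.422 and 0.546 for the fasted ones. The mean was 0.268 ± 0.0367 for the controls and 0.494 ± 0.0646 for the fasted ones (SD, n = 3 each).

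**Figure D4:**
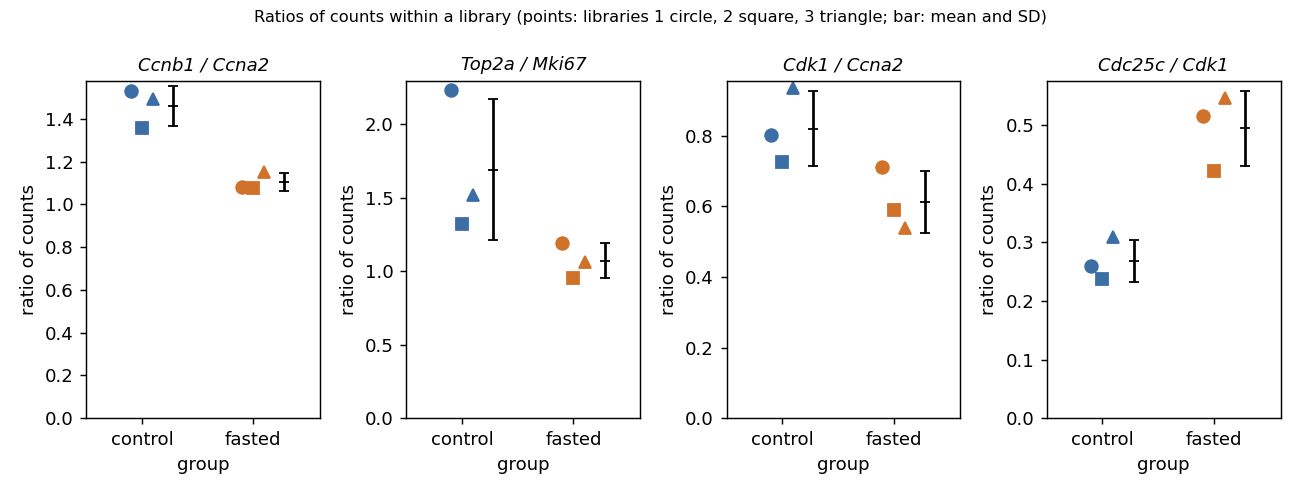
Ratio of counts within each library (y axis, from 0) for 4 pairs of members in control (blue) and fasted (orange) libraries, with the mean and SD of 3 libraries beside the points. The groups do not overlap in any of the 4 panels, which were chosen after the values were seen. The fasted values of Ccnb1 over Ccna2 lie between 1.08 and 1.15, below control values of 1.36 to 1.53.

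Other genes of mitosis leaned the same way by sign. Of a list of 85 further mitotic genes 80 were tested, and 0 passed in either direction. At an unadjusted p under 0.05, 15 of the 80 were lower and 0 higher, where 8.3% of all tested genes were lower and 11.6% higher. A total of 58 had a log2 fold change below 0 (72.5%, against 47.7% of all tested genes), with a median of -0.12. The smallest p belonged to Cdc16, which encodes an APC/C subunit, at 115, 127 and 112 CPM in fasted libraries against 179, 153 and 161 CPM in control libraries. Its groups were apart, with -0.48 (edgeR adjusted p 0.143, SE 0.12). Tubb4b, a beta tubulin gene and the most abundant of the list, had 0.10 (SE 0.17).

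Regulators of G2-M transcription were split. Of 15 listed genes 14 were tested, 7 below and 7 above 0, with a median of 0.0040 and 0 calls. At an unadjusted p under 0.05, 2 of the 14 were lower and 1 higher, where 8.3% of all tested genes were lower and 11.6% higher. Foxm1, the forkhead factor of G2-M genes, had 23.4, 26.9 and 26.8 CPM in control and 37.9, 16.9 and 43.8 CPM in fasted libraries. The groups overlapped, at 0.35 (SE 0.32). Mybl2 (B-MYB) had 0.06 (SE 0.23). Rbl1, which encodes the p107 pocket protein, had 121, 109.9 and 96.8 CPM in control and 71.2, 70.4 and 86.8 CPM in fasted libraries, apart in all 3, at -0.52 (edgeR adjusted p 0.148, SE 0.15).

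DNA replication genes, which act a phase earlier, are set beside the mitotic ones for scale. All 40 were tested, 39 had a log2 fold change below 0, and the median was -0.28. None passed, and 16 were lower and 0 higher at an unadjusted p under 0.05, where 8.3% of all tested genes were lower and 11.6% higher. The groups did not overlap for 21 (52.5%), all 21 lower, where 27.4% of all tested genes did not overlap and 13% were lower without overlap. The mean log2 CPM of these genes relative to the 6 libraries was 0.25, 0.18 and -0.03 for the controls against -0.22, -0.11 and -0.06 for the fasted ones. Mcm3, which encodes a helicase subunit loaded at replication origins, had 751, 692 and 661 CPM in control and 514, 502 and 478 CPM in fasted libraries, at -0.49 (edgeR adjusted p 0.131, SE 0.12). Whether replication and mitotic genes differ in their shift was not tested.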

How the data were processed

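Polyadenylated RNA of sorted cells was sequenced in bulk, 3 libraries per group, with columns matched to libraries through their descriptions. The deposited values are raw gene counts, 1 column per library, beside each gene's length. HISAT2 2.2.1, featureCounts 2.0.1 and GRCm38 are named in the submitters' processing notes; the annotation, strand setting and filters are not given in the sources used here. Symbols and positions came from GENCODE M21 (54435 of 55487 identifiers matched with version, including all members), and promoter sequences from RefSeq.

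Of the 36508 genes passing filterByExpr, the 10648 at or above 5 times the receptor gene background were tested with edgeR 4.0.16 (R 4.3.3; TMM, glmQLFit, robust, group only) and Benjamini-Hochberg adjustment, after a check on simulated data. This departs from a fit of all genes because earlier results of these data traced its factors to background genes, which was not tested again here. Those factors were 0.75 to 0.94 in control and 1.05 to 1.29 in fasted libraries. SE is the log2 fold change over the square root of F. DESeq2 1.42.0, limma 3.58.1, other filters and factors, background subtraction, a block and leaving out each library were alternatives. Members and lists were chosen with earlier results of these data known. Library by library values are given for the member with the highest mean CPM and that with the smallest p in each role group, the 5 smallest p and the 3 largest positive changes. Of other lists, the genes with the smallest p or highest CPM were eligible, and Foxm1 and Mybl2. Mki67 and Cenpf were given library by library, and Ect2 by its ranges, after their values were seen.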

Additional observations from a re-analysis of the deposited data

How the results depend on the processing

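No member passed under any alternative built on the 10648 genes except Top2a with DESeq2, and the direction of the members' median held throughout. Over all tested genes, 1813 of 36508 (4.97%) passed with all genes passing filterByExpr, 1631 of 20634 (7.9%) at 2 times the background, 501 of 10648 with DESeq2 and 2 at an adjusted p under 0.10. Members passing were 13, 9, 1 and 0 in that order, and 8 had an unadjusted p under 0.05. Leaving out 1 library passed 0 to 3 genes (3 without control library 1, 3 without control library 3), 0 members each time, and gave a members' median of -0.31 to -0.13. The median of the members was nearer 0 than the main -0.19 in these further settings, where the scaling factors were also computed again. At 10 times the background it was -0.11, with 27 of 37 members lower. Cdk1 went there from -0.38 to -0.30 and Cdc25c from 0.51 to 0.59. With the background subtracted it was -0.14, with 31 of 39 lower. The median of the 10 members below 20 times the background went from -0.12 to -0.16. For the 29 others it went from -0.21 to -0.14. What part background has in these moves was not tested. The median of the members was -0.72 with all genes and -0.55 at 2 times the background. For the further mitotic genes these were -0.64 and -0.46, for the G2-M regulators -0.50 and -0.34, and for DNA replication -0.82 and -0.64, with DNA replication between -0.41 and -0.23 when 1 library was left out. Genes passing were 21, 18 and, with DESeq2, 1 of the further mitotic genes, 2, 2 and 1 of the regulators, and 23, 21 and 4 of the replication genes. A factor moves all genes alike, so members above 0 went below it with all genes and at 2 times the background: Ccna2 (-0.49, -0.30), Cenpa (-0.42, -0.24), Ndc80 (-0.41, -0.23), Hmmr (-0.43, -0.24), Kif23 (-0.32, -0.16), Mki67 (-0.47, -0.31) and, with all genes alone, Cdc25c (-0.014). At 10 times the background 37 members were tested, and Cenpe (0.062), Nusap1 (0.015), Ncapd2 (0.060) and Ncapg (0.017) turned positive. Ncapd2 was 0.037 with the background subtracted and Mki67 -0.0015 with library totals. With 1 library left out, signs turned for Ccna2 (-0.12 to 0.21), Cenpa (-0.053 to 0.25), Cenpe (-0.10 to 0.062), Hmmr (-0.11 to 0.27), Kif23 (-0.019 to 0.31), Mki67 (-0.087 to 0.14), Ncapd2 (-0.13 to 0.11) and Ncapg (-0.20 to 0.0062). Same-numbered libraries deviated together with r = -0.15, 0.13 and -0.25 for numbers 1, 2 and 3, and differently numbered ones with r from -0.12 to 0.26. No pairing by number was seen, but 3 libraries per group cannot exclude it. With the replicate number as a block 0 genes and 0 members passed, with a members' median of -0.20. Depth of 12797144 to 30246110 counts per library and 3 libraries per group limit the precision to an SE of 0.12 to 0.22 per member.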
